A study of Mus musculus with 7 samples.

Results

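The 10 genes described here encode Wnt ligands measured in mouse hippocampus, and they are Wnt2, Wnt2b, Wnt3, Wnt4, Wnt5a, Wnt5b, Wnt7a, Wnt7b, Wnt9a and Wnt10a. They were chosen by gene symbol among the 21965 genes of a deposited table of expected counts, and each symbol matched 1 row. The choice was made with the counts of both groups in view, so the difference between the groups is given below as a description, with no p-value for these genes. Poly(A) RNA was sequenced from 3 libraries of mice that received no treatment (Control) and 4 libraries of a mouse model of hidden hearing loss caused by noise (NIHHL), in which animals were exposed to 110 dB for 2 h. All hippocampi were taken 1 month after induction. The labels give no genotype, strain, sex or age and do not tie libraries to single animals, so the spread between libraries may be technical.

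Wnt ligands are secreted, lipid-modified glycoproteins that act over short distances. In the canonical branch a ligand joins a Frizzled receptor to Lrp5 or Lrp6, the complex that destroys beta-catenin is inhibited, and beta-catenin accumulates and works with TCF/LEF factors on target genes. Other branches pass through Ror, Ryk and planar polarity proteins to the cytoskeleton and to calcium. In the adult hippocampus Wnt signals are known for roles in the birth of dentate granule cells and in the formation and plasticity of synapses.

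Total counts per library ran from 14871367 to 24515138, and hippocampal neuron markers were present in every library, with Prox1 of dentate granule cells at 101 to 166 CPM and Wfs1 of CA1 pyramidal cells at 65.7 to 131 CPM. CPM are counts set to a common library size, with factors from the trimmed mean of M values. Transcripts of neighbouring tissue were also unequal between the libraries. Ttr, the main transcript of the choroid plexus, ranged over 56.3 to 6558 CPM among Control libraries and 487 to 7826 CPM among NIHHL libraries. In bulk tissue, fewer cells of a type and less RNA per cell cannot be told apart.

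All 10 ligands had enough counts for the test, at a minimum count of 10 and also at 5 and at 20. The thinnest counts were those of Wnt5b (19 to 49 per library), Wnt10a (21 to 54), Wnt3 (24 to 70) and Wnt2b (25 to 51). The counting error alone gives these 4 genes a coefficient of variation between 15.7% and 18.2%, while the observed coefficient over the 7 libraries lay between 23.3% and 28.1%. Wnt2 had 38 to 106 counts, a counting coefficient of 12.4% and an observed one of 28.4%, the highest of the 10. Wnt7b was counted best, with 683 to 1009 reads per library and an observed coefficient of 9.17%. Reads were not marked by molecular identifiers, so these figures hold for counting error alone.

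The ligands differed in level by a wide margin once counts were divided by exon length. Wnt7b and Wnt7a, a pair of close paralogs that act on brain endothelium through the receptor complex of Adgra2 and Reck, ranked first and second. Wnt7b stood at 8.89 ± 0.815 CPM per kb of exon and Wnt7a at 4.30 ± 0.454 (mean ± SD, n = 7 libraries). Together they held the larger part of the summed level of the 10 genes, with shares of 38.5% and 18.6%. Wnt4, best known from kidney and gonad development, followed at 2.44 ± 0.283 CPM per kb, then Wnt9a, a ligand of joint formation, at 1.89 ± 0.198. Wnt2 was at 1.66 ± 0.472 and Wnt5a, the classical ligand of the Ror branch, at 1.34 ± 0.172 CPM per kb.

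Below them came Wnt3 at 0.763 ± 0.206, Wnt10a, a ligand of tooth and skin development, at 0.718 ± 0.167, Wnt5b at 0.656 ± 0.184 and Wnt2b at 0.432 ± 0.103 CPM per kb. On this scale Wnt7b lay above 66.8% of all genes tested and Wnt2b above 8.57%. Neighbours in the order were compared by an exact two-sided test that swaps the 2 genes within each of the 7 libraries, whose smallest possible p is 0.0156, with adjustment over 9 pairs. Wnt7b exceeded Wnt7a, Wnt7a exceeded Wnt4, Wnt4 exceeded Wnt9a and Wnt5a exceeded Wnt3, each in 7 of 7 libraries (exact permutation p = 0.0156, adjusted p = 0.0352). The mean log2 ratios of these 4 pairs were 1.05, 0.82, 0.37 and 0.85.

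By group means, Wnt2 was at 1.26 ± 0.349 CPM per kb in Control, just under Wnt5a at 1.28 ± 0.206 (SD). In NIHHL it was at 1.97 ± 0.280, just above Wnt9a at 1.91 ± 0.251 (SD). Both gaps are smaller than these SDs, so no change of place between the groups is read from them. Beyond the 4 pairs above, the order was not resolved. Wnt9a was above Wnt2 in 5 of 7 libraries (mean log2 ratio 0.23, exact permutation p = 0.312, adjusted p = 0.402) and Wnt2 above Wnt5a in 4 of 7 (0.27, exact permutation p = 0.188, adjusted p = 0.281). Wnt3, Wnt10a and Wnt5b did not separate from each other (exact permutation p = 0.672 and 0.578, adjusted p = 0.672 and 0.650). Wnt5b was above Wnt2b in 6 of 7 libraries, with an adjusted p of 0.0844 (exact permutation p = 0.0469). The lengths are those of merged GENCODE exons on GRCm38, with 1 length per gene for all libraries. A gene transcribed mainly as a shorter isoform would have a higher level per kb than given here. Such a length error would shift a pair of genes the same way in each of the 7 libraries, and the exact test does not cover it.

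**Figure D1:**
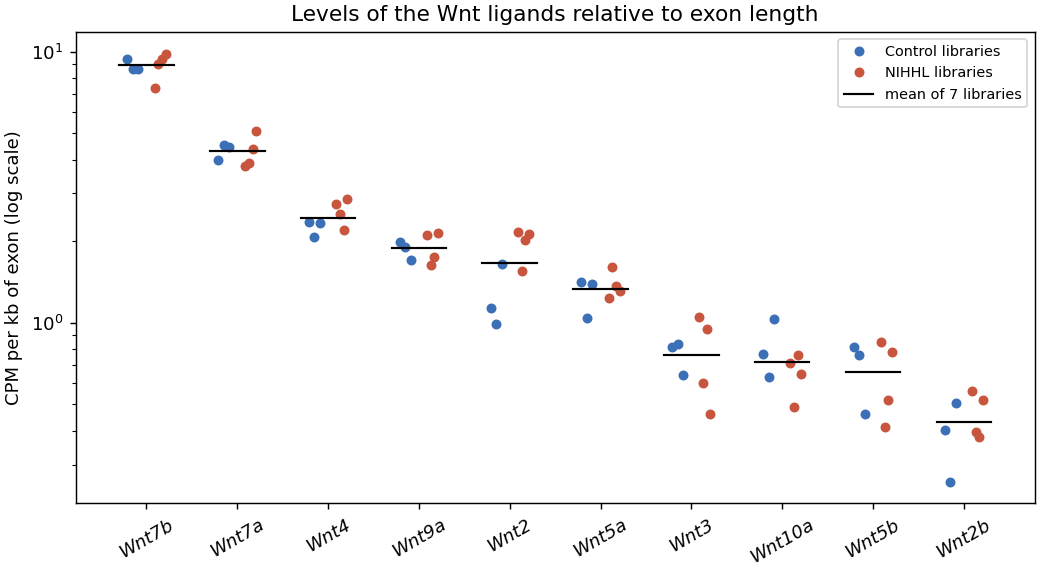
Each point is 1 library (blue Control, red NIHHL) and each bar the mean of 7 libraries, with CPM per kb of exon on a log axis. Wnt7b leads at 8.89 and Wnt2b is last at 0.432 CPM per kb. The points of Wnt2 spread from 0.986 to 2.16 CPM per kb.

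Wnt2 showed the widest difference between the groups. Wnt2 is a ligand known from lung and placental development, and in cultured hippocampal neurons it has been tied to activity-dependent growth of dendrites. It had 38, 53 and 79 counts in Control replicates 1 to 3 and 106, 61, 83 and 81 counts in NIHHL replicates 1 to 4. Scaled to library size, Wnt2 stood at 2.56, 2.22 and 3.73 CPM in Control and at 4.88, 3.51, 4.57 and 4.78 CPM in NIHHL. NIHHL replicates 1, 3 and 4 lay above every Control library, while NIHHL replicate 2 lay just under Control replicate 3, so the groups overlapped.

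The mean of Wnt2 was 4.43 ± 0.631 CPM in NIHHL (SD, n = 4) and 2.84 ± 0.788 CPM in Control (SD, n = 3), a ratio of 1.56. The fitted log2 fold change was 0.64 (SE 0.21). Counting error alone leaves Control replicate 1 between 1.81 and 3.52 CPM (exact Poisson interval, 95%). No ligand was called. At an adjusted p under 0.05, edgeR's quasi-likelihood test called 0 of the 10, and it called 0 of all 14417 genes tested (0%), with 523 at an unadjusted p under 0.05. DESeq2 called 4 of 18177 genes (0.0220%), with 447 at an unadjusted p under 0.05, and none of the 4 was a Wnt ligand.

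The stretch around the start of Wnt2 is shown because Wnt2 carries the widest difference, and that of Wnt2b because its values over the libraries were the most like those of Wnt2 among the ligands. Each runs 5′ to 3′ on the gene's strand, from 250 bases before to 50 bases after the RefSeq start on GRCm38.p6, and capitals mark the GC box GGGCGG on either strand. Wnt2 lies at chr6:18030396-18030695 on the minus strand and Wnt2b at chr3:104961660-104961959 on the minus strand.
Wnt2: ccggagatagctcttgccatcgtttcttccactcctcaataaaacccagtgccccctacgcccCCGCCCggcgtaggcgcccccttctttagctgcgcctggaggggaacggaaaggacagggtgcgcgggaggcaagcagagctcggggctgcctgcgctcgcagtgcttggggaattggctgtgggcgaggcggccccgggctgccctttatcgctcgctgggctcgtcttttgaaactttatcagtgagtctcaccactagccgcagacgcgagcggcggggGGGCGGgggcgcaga
Wnt2b: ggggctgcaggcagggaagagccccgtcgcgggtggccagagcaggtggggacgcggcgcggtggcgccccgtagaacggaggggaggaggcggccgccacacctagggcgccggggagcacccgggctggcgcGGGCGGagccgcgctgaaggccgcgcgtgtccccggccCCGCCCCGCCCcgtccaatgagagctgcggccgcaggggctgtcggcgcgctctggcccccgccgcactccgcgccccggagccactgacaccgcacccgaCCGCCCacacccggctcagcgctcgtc
The Wnt2 stretch held 2 GC boxes and the Wnt2b stretch 4, counting both strands and overlapping matches, and 35.7% of 32851 RefSeq promoters of the same length held at least 1. The letters TGACG, the core of sites bound by CREB, were absent from both windows and present in 20.8% of all promoters. The letters CTTTGA or CTTTGT, the core bound by TCF/LEF factors, were also absent from both and present in 31.2%. GC content was 65.7% for Wnt2 and 79.7% for Wnt2b, against a median of 52.7%. RefSeq promoters matched 7 of the 10 ligands, and Wnt5a, Wnt7b and Wnt10a had no entry.

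Wnt2b, the paralog of Wnt2, stood at 1.69, 1.09 and 2.12 CPM in Control replicates 1 to 3 and at 2.35, 1.67, 1.597 and 2.18 CPM in NIHHL replicates 1 to 4. Its groups overlapped, with Control replicate 2 lowest of all. The log2 fold change was 0.27 (SE 0.28), and it was 0.03 without Control replicate 2 and 0.52 without Control replicate 3. Wnt3, a ligand that hippocampal astrocytes are known to release and that drives neurogenesis, ran at 2.49, 2.56 and 1.98 CPM in Control and at 3.22, 1.84, 2.92 and 1.42 CPM in NIHHL. NIHHL replicates 1 and 3 lay above every Control library and replicates 2 and 4 below every one, and the log2 fold change was 0.02 (SE 0.29).

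The paralogs Wnt7a and Wnt7b had log2 fold changes close to 0 with the smallest standard errors of the 10 ligands. Wnt7b stood at 46.0, 42.3 and 42.4 CPM in Control and at 35.8, 44.1, 45.9 and 48.1 CPM in NIHHL, where replicate 1 was the lowest of all libraries. Its log2 fold change was -0.0039 (SE 0.10). Wnt7a stood at 12.6, 14.4 and 14.1 CPM in Control and at 11.97, 12.4, 13.9 and 16.1 CPM in NIHHL, a log2 fold change of -0.02 (SE 0.12). In both genes NIHHL replicate 1 was the lowest library and NIHHL replicate 4 the highest.

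Among Wnt4, Wnt5a and Wnt5b, Wnt4 had the most even values. It stood at 9.84, 8.68 and 9.81 CPM in Control and at 11.5, 10.6, 9.25 and 11.97 CPM in NIHHL. NIHHL replicates 1, 2 and 4 lay above all Control libraries and replicate 3 within their range, and the log2 fold change was 0.20 (SE 0.12). Wnt5a ran at 11.1, 8.18 and 10.9 CPM in Control and at 9.62, 12.5, 10.7 and 10.3 CPM in NIHHL, with a log2 fold change of 0.10 (SE 0.14). Wnt5b, its paralog, ran at 2.16, 2.01 and 1.23 CPM in Control and at 2.26, 1.09, 1.38 and 2.06 CPM in NIHHL, with a log2 fold change of -0.07 (SE 0.31). Each group of Wnt5b values held both higher and lower libraries, and the groups overlapped.

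Wnt9a stood at 6.61, 6.34 and 5.66 CPM in Control and at 6.996, 5.46, 5.84 and 7.14 CPM in NIHHL, a log2 fold change of 0.04 (SE 0.15). Wnt10a was the ligand with the lowest log2 fold change, -0.31 (SE 0.26). It ran at 1.89, 1.55 and 2.55 CPM in Control and at 1.75, 1.21, 1.87 and 1.59 CPM in NIHHL. Control replicates 1 and 3 lay above every NIHHL library, replicate 1 by a narrow margin, and without replicate 3 the log2 fold change of Wnt10a was -0.09.

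**Figure D2:**
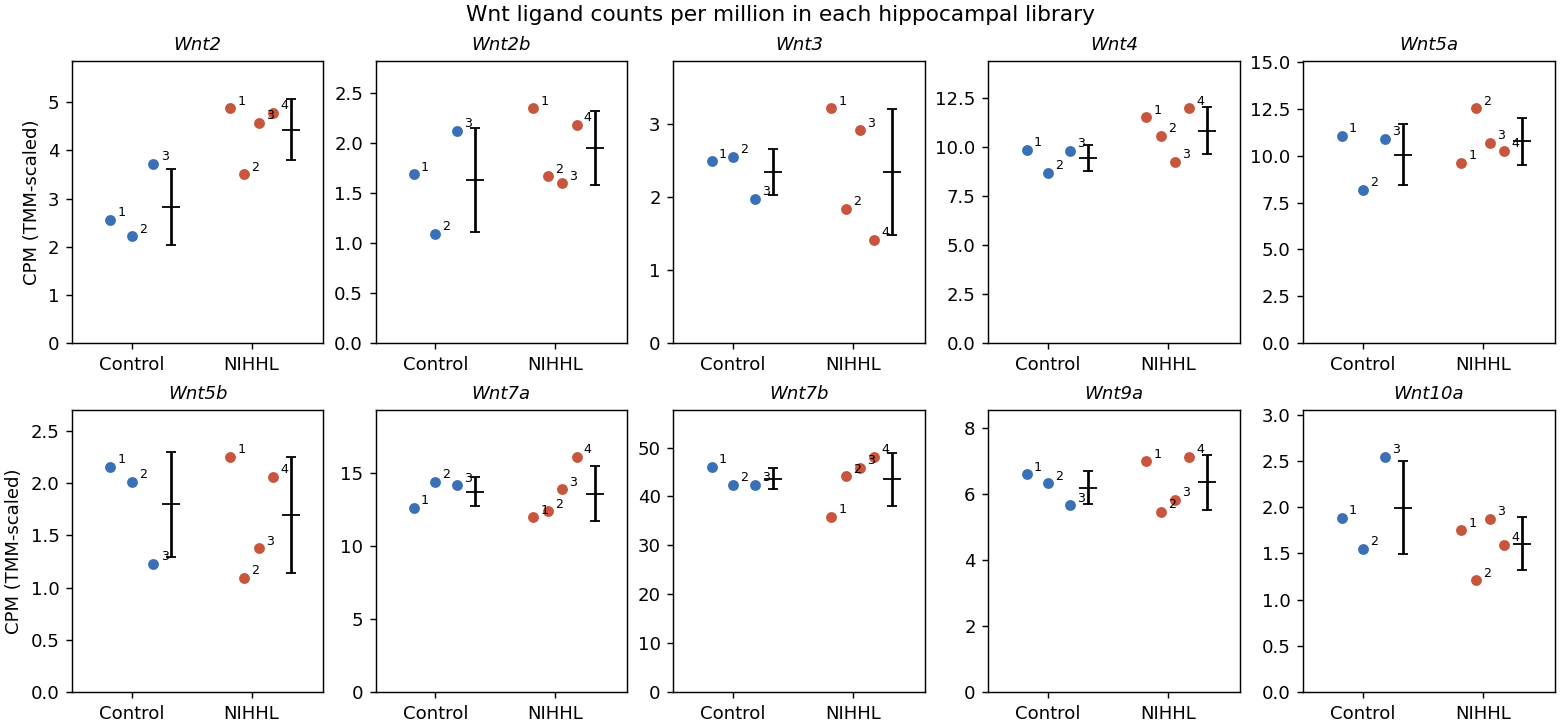
Each panel gives 1 ligand in CPM, from 0, with numbered points for the 3 Control and 4 NIHHL libraries and a black mark for the group mean ± SD. Wnt2 reaches 4.88 CPM in NIHHL against at most 3.73 in Control, and the groups overlap in every panel.

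As a list, 6 of the 10 ligands had a fitted log2 fold change above 0, where 49.9% of all genes tested did. The median was 0.03, beside a median of -4.54e-04 over all genes. Leaving out 1 library moved the median of the ligands between -0.01 (without Control replicate 3) and 0.10 (without NIHHL replicate 2). The groups did not overlap for 0 of the 10 ligands. Over all genes the groups did not overlap with NIHHL higher in 2.84% and with NIHHL lower in 2.37%. Because the ligands were chosen with this contrast in view, nothing is read from these shares.

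**Figure D3:**
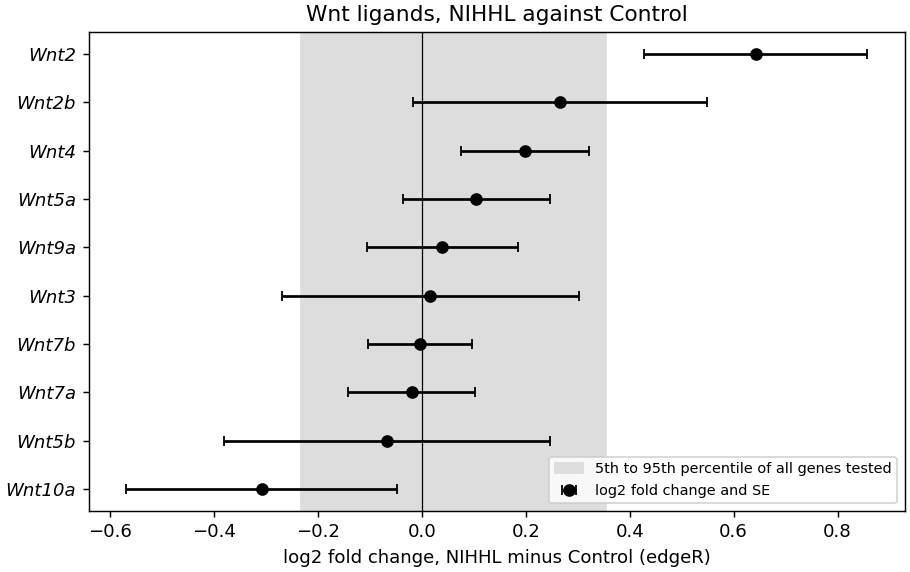
Points are log2 fold changes, NIHHL minus Control, with bars of 1 SE, and the grey band holds the middle of all genes tested, from the 5th to the 95th percentile. Wnt2 at 0.64 and Wnt10a at -0.31 lie outside the band, and the other ligands lie inside it.

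The other 9 Wnt genes of the table had group means of at most 0.820 CPM. Wnt9b and Wnt11 passed the low-count filter. Wnt9b had 7, 4 and 8 counts in Control and 18, 14, 12 and 8 counts in NIHHL, so 3 of 4 NIHHL libraries lay above all Control libraries after scaling. Its mean was 0.691 ± 0.164 against 0.339 ± 0.156 CPM, with a log2 fold change of 1.09 (SE 0.44, edgeR adjusted p = 0.996). Wnt9b passed the filter only through NIHHL replicates 1 to 3, and it was not tested when any of them was left out. Its higher level in NIHHL is thus tied to its being tested, and nothing is read from it. Wnt11 was at 0.820 ± 0.249 against 0.617 ± 0.205 CPM (log2 fold change 0.40, SE 0.38, edgeR adjusted p = 0.996), and its log2 fold change was 0.21 without Control replicate 2 and 0.72 without Control replicate 3.

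Wnt8b, Wnt16, Wnt10b and Wnt6 had 63, 64, 45 and 36 counts over all 7 libraries, and Wnt1, Wnt3a and Wnt8a had 11, 10 and 1. Counts of 0 in a library allow a level of up to 3 counts, or 0.126 to 0.202 CPM by library. Several of these genes lie next to an expressed ligand in the gene order of the GENCODE annotation of GRCm38. Wnt9b is the next gene to Wnt3 on chromosome 11, Wnt3a to Wnt9a on the same chromosome, and Wnt6 to Wnt10a on chromosome 1.

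Wnt2 and Wnt2b also share a layout, since the neighbour of Wnt2 on chromosome 6 is St7 and that of Wnt2b on chromosome 3 is its paralog St7l. St7 averaged 17.3 CPM in NIHHL and 18.2 CPM in Control (log2 fold change -0.07, SE 0.11) and St7l at 28.3 and 27.8 CPM (0.02, SE 0.08), both with an edgeR adjusted p of 0.996. Among protein-coding genes no exon overlapped those of the 10 ligands. Antisense RNAs shared 4.58% of the exon bases of Wnt5a and 6.61% of those of Wnt7b. Reads over these bases cannot be told apart without a strand-specific library.

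The rest of the pathway was read from 128 genes grouped by role, of which 114 were tested. Of these, 76 had a higher and 38 a lower fitted mean in NIHHL, where 49.9% of all genes tested had a log2 fold change above 0. The median log2 fold change was 0.06, beside -4.54e-04 over all genes. The lists were chosen with earlier results of these data known, so nothing is read from the counts of higher genes here or below. None was called by edgeR (0 of 114, smallest adjusted p = 0.996). At an unadjusted p under 0.05 there were 9 of the 114 (7.89%). Of these 9, 8 were higher and 1 lower, where 2.32% of all genes were higher and 1.31% lower. DESeq2 called none of them either. The genes named below are the 2 with the smallest unadjusted p in each list, unless said otherwise. That choice favours groups that do not overlap, so nothing is read from such separation. Over all genes the groups did not overlap with NIHHL higher in 2.84%.

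Of 10 Frizzled receptors, which bind the ligands, 8 had a higher mean in NIHHL and the median log2 fold change was 0.11. Without NIHHL replicate 2 only 9 of them were tested, and the median of those 9 was 0.21. Fzd8 stood at 4.38, 5.29 and 5.52 CPM in Control and at 5.98, 6.32, 6.22 and 6.31 CPM in NIHHL, so its groups did not overlap (log2 fold change 0.29, SE 0.14, edgeR adjusted p = 0.996). Fzd7 was at 13.9 ± 3.61 against 10.9 ± 2.41 CPM (0.35, SE 0.22, edgeR adjusted p = 0.996), with a log2 fold change of 0.54 without Control replicate 2 and 0.22 without NIHHL replicate 4. Of 11 co-receptors, 10 were higher, with a median of 0.17.

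Ror1, a receptor tyrosine kinase of the branch that Wnt5a uses, stood at 4.65, 4.53 and 4.10 CPM in Control and at 6.12, 5.57, 5.40 and 7.25 CPM in NIHHL. All 4 NIHHL libraries lay above all Control libraries, with a log2 fold change of 0.46 (SE 0.15, edgeR adjusted p = 0.996). Musk, the receptor kinase of the neuromuscular junction with a Frizzled-like domain, stood at 1.01, 0.797 and 0.849 CPM in Control and at 1.89, 3.85, 1.87 and 1.00 CPM in NIHHL. Its log2 fold change of 1.29 (SE 0.41, edgeR adjusted p = 0.996) was 0.86 without NIHHL replicate 2. Lrp6, which pairs with Frizzled receptors in the canonical branch, was at 63.0 ± 11.6 against 55.8 ± 5.92 CPM (0.17, SE 0.13, edgeR adjusted p = 0.996) and was named after its value was seen.

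Genes that export Wnt proteins were higher in 5 of 7 cases, with a median of 0.08, or 0.04 without NIHHL replicate 1. Wls, the carrier that brings Wnt proteins to the cell surface, was at 44.0 ± 5.83 against 38.4 ± 1.59 CPM (0.20, SE 0.10), and without NIHHL replicate 1 its log2 fold change was 0.11. Tmed2, a cargo receptor of the early secretory route, was at 144 ± 6.77 against 136 ± 4.92 CPM (0.08, SE 0.07). Both had an edgeR adjusted p of 0.996.

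Secreted inhibitors were mixed, with 9 of 14 tested members higher and a median of 0.07. Leaving out 1 library raised that median in each case, the most to 0.19 without Control replicate 3. Sfrp4, which binds Wnt proteins outside the cell, was at 1.95 ± 0.939 against 1.02 ± 0.114 CPM. All 4 NIHHL libraries of Sfrp4 lay above all Control libraries, and its log2 fold change of 0.94 (SE 0.36, edgeR adjusted p = 0.996) was 0.57 without NIHHL replicate 2. Dkkl1, a relative of the Dickkopf inhibitors, was at 0.797 ± 0.181 against 1.41 ± 0.915 CPM (-0.83, SE 0.42, edgeR adjusted p = 0.996), and without Control replicate 3 at a log2 fold change of -0.13. Of 8 R-spondin pathway genes, which tune how many receptors stay at the surface, 3 were higher (median -0.04, between -0.09 without NIHHL replicate 2 and -0.01 without Control replicate 2).

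Of 15 genes of the destruction complex and of Dishevelled, 9 were higher, with a median of 0.01 and a range from -0.04 to 0.15. The highest was Amer1, a binding partner of the complex, at 10.9 ± 1.97 against 9.87 ± 1.56 CPM (0.15, SE 0.16, edgeR adjusted p = 0.996). Without NIHHL replicate 1 it was 0.03 and without Control replicate 1 it was 0.28. Of 14 beta-catenin and TCF genes, 7 were higher (median 0.02), over a range from -0.27 to 0.52, and the median was -0.04 without Control replicate 2. The co-repressor Tle1 was at 47.2 ± 4.14 against 42.1 ± 2.203 CPM (0.17, SE 0.08, edgeR adjusted p = 0.996). Beta-catenin itself, Ctnnb1, was at 600 ± 17.2 against 585 ± 14.1 CPM (0.04, SE 0.06, edgeR adjusted p = 0.996; named after its value was seen). Tcf7l2, a TCF factor, stood at 3.24, 2.69 and 4.48 CPM in Control and at 5.43, 4.83, 5.12 and 4.48 CPM in NIHHL. NIHHL replicate 4 and Control replicate 3 were nearly equal and the other NIHHL libraries higher (0.52, SE 0.19, edgeR adjusted p = 0.996).

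Known beta-catenin targets were higher in 12 of 16 tested cases, with a median of 0.09, or 0.05 without NIHHL replicate 2. Axin2, a feedback inhibitor that is the usual readout of the canonical branch, was at 19.7 ± 0.981 against 18.2 ± 2.04 CPM (0.11, SE 0.10), with a log2 fold change of 0.03 without Control replicate 2 and 0.20 without Control replicate 3. Rnf43 and Znrf3, ligases that remove Frizzled receptors, were at 3.02 ± 0.556 against 2.36 ± 0.213 CPM (0.37, SE 0.20) and at 15.8 ± 1.47 against 13.9 ± 0.724 CPM (0.19, SE 0.10). Without NIHHL replicate 1 the log2 fold change of Rnf43 was 0.23. Rnf43 and Znrf3 are also in the R-spondin list, and Axin2 is in the list of the destruction complex. The tallies of these lists are therefore not separate counts. Axin2, Rnf43 and Znrf3 each had an edgeR adjusted p of 0.996.

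Of 26 genes of planar polarity and calcium signalling, 18 were higher (median 0.06). Without Control replicate 2 this median came to 0.01, and without Control replicate 1 to 0.09. The membrane protein Vangl1 was at 5.96 ± 0.827 against 4.18 ± 0.805 CPM (0.50, SE 0.18) and the cadherin Celsr1 at 14.4 ± 0.627 against 11.1 ± 2.36 CPM (0.38, SE 0.14), both with an edgeR adjusted p of 0.996. The groups did not overlap in either gene. Celsr1 had its lowest value, 8.35 CPM, in Control replicate 2, and without that library its log2 fold change was 0.21.

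**Figure D4:**
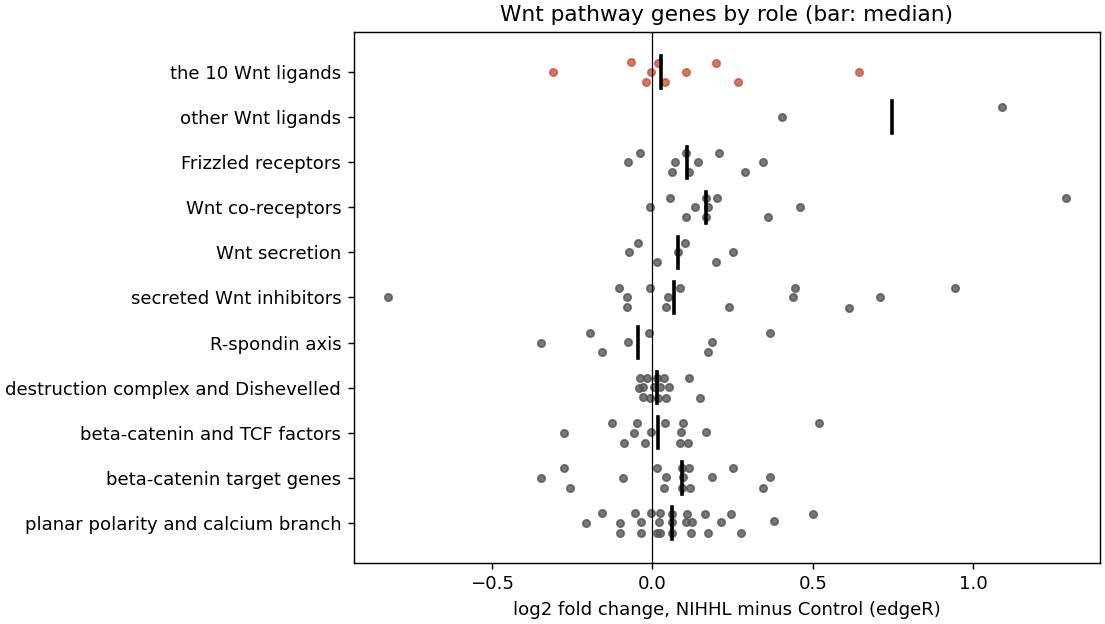
Each point is 1 gene and each black bar the median of its list, on the scale of log2 fold change, NIHHL minus Control; the 10 ligands are in red at the top. Medians run from -0.04 for the R-spondin genes to 0.17 for the co-receptors, apart from the 2 tested other ligands at 0.75. Of those 2, Wnt9b passed the low-count filter only through its NIHHL libraries.

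Marker levels of other cells differed between the same libraries. All 20 choroid plexus genes had a higher mean in NIHHL (0 called, median 0.71), and their summed level was 407 to 9432 CPM over Control libraries and 1064 to 12344 CPM over NIHHL libraries. Oligodendrocyte genes were higher in 9 of 10 cases (0 called, median 0.19), with sums of 7293 to 9142 and 8398 to 9875 CPM. For genes of meningeal fibroblasts the NIHHL mean was higher in 12 of 16 (0 called, median 0.16), with sums of 203 to 302 and 251 to 459 CPM. All 14 ependymal genes (median 0.46), all 10 dentate granule cell genes (0.25) and all 11 astrocyte genes (0.09) also had a higher mean in NIHHL, again with 0 called. Their sums were 65.4 to 106 CPM in Control and 104 to 127 in NIHHL for ependymal genes, 572 to 772 and 619 to 848 for dentate granule cell genes, and 2888 to 3044 and 2880 to 3301 for astrocyte genes. The medians of the other 8 lists lay between -0.05 and 0.08. No marker of the 14 lists was at 0 in all libraries.

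Of the 14 marker lists, the oligodendrocyte list had the highest Pearson's r with Wnt2 over all libraries. Across the 7 libraries, Pearson's r between log2 CPM of Wnt2 and the mean log2 CPM of the 10 oligodendrocyte genes was 0.90 (exact permutation p = 0.00794, adjusted p = 0.556 over 140 relations, which did not pass). Spearman's rho was 0.82 (exact permutation p = 0.0341, adjusted p = 0.915). Leaving out Control replicates 1 and 2, which had the lowest oligodendrocyte scores, r was 0.45, so the relation rests on those libraries. The thalamus and habenula list had the same rho with Wnt2, 0.82 (exact permutation p = 0.0341, adjusted p = 0.915), an r of 0.72 (exact permutation p = 0.0740, adjusted p = 0.849), and r = 0.77 without Control replicate 3 and NIHHL replicate 1. That list includes Lef1 and also Tcf7l2, which was described above as a TCF factor. Astrocyte genes had r = 0.58 (exact permutation p = 0.178, adjusted p = 0.849) and rho = 0.54 (exact permutation p = 0.236, adjusted p = 0.915), and r = 0.72 without NIHHL replicates 2 and 3. Neither group holds enough libraries for a value within it. The correlations here and below, and their permutation p-values, pool both groups, so differences between the groups enter them. Wnt2 and 9 of the 10 oligodendrocyte genes had a higher mean in NIHHL. With the oligodendrocyte score as a covariate the log2 fold change of Wnt2 was 0.33 (SE 0.23), and with the choroid plexus score it was 0.58 (SE 0.24). The oligodendrocyte covariate took Wnt2b from 0.27 to 0.02 (SE 0.34). It took Wnt10a from -0.31 to -0.67 (SE 0.29) and Wnt5b from -0.07 to 0.24 (SE 0.43).

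The 5 genes whose log2 CPM was most like that of Wnt2 over the 7 libraries were Trp53inp2 (r = 0.99), Mal (r = 0.98), Jam3 (r = 0.98), Elovl1 (r = 0.97) and Ddr1 (r = 0.96). Mal, a membrane protein of myelin, is itself in the oligodendrocyte list. Wnt2 was also the ligand with the highest SD of log2 CPM, 0.43. These values of r are the highest among 14417 genes after leaving out predicted gene models and genes with clone names. They were not tested.

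**Figure D5:**
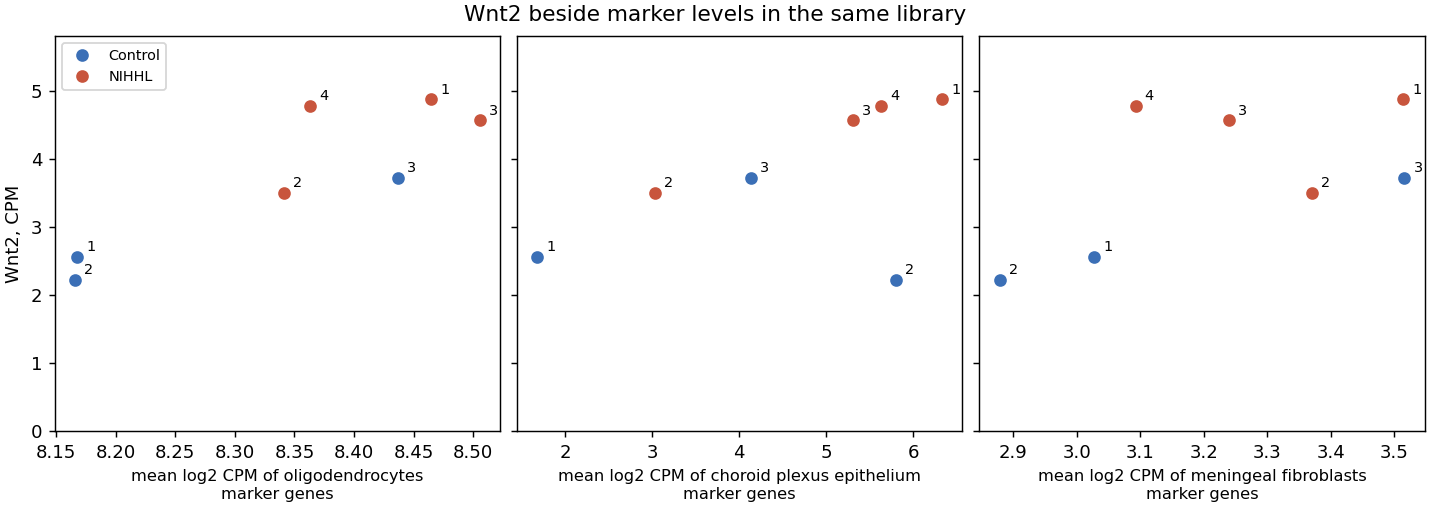
Wnt2 in CPM is plotted against the mean log2 CPM of 3 marker lists in the same library, with numbered Control (blue) and NIHHL (red) points. Control replicates 1 and 2 lie low in both Wnt2 and oligodendrocyte score, while Control replicate 2 has a high choroid plexus score with the lowest Wnt2, 2.22 CPM.

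Among the ligands themselves, Wnt5b and Wnt9a varied together most closely over the 7 libraries, with r = 0.94 (exact permutation p = 0.00179, adjusted p = 0.0804 over 45 pairs). Their rho was 0.89 (exact permutation p = 0.0123, adjusted p = 0.554), and r was 0.85 without the 2 libraries farthest from the median of Wnt5b. Wnt2b and Wnt4 followed at r = 0.82 (exact permutation p = 0.0206, adjusted p = 0.464) and rho = 0.82 (exact permutation p = 0.0341, adjusted p = 0.768), with r = 0.60 after the same step for Wnt2b. Wnt2 and Wnt2b had r = 0.78 (exact permutation p = 0.0323, adjusted p = 0.485) and rho = 0.75 (exact permutation p = 0.0663, adjusted p = 0.969), and r was 0.42 without the 2 libraries farthest from the median of Wnt2.

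Wnt2b had r = 0.91 with the mean log2 CPM of CA1 pyramidal cell genes (exact permutation p = 0.00556, adjusted p = 0.556) and rho = 0.86 (exact permutation p = 0.0238, adjusted p = 0.915). Without Control replicate 2 and NIHHL replicate 1, r was 0.66. Control replicate 2 had both the lowest Wnt2b and the lowest Wfs1, at 65.7 CPM. The rho farthest from 0 among the 140 relations was that of Wnt5a with choroid plexus genes, -0.93 (exact permutation p = 0.00675, adjusted p = 0.915). Their r was -0.68 (exact permutation p = 0.0933, adjusted p = 0.849), and -0.59 without Control replicate 1 and NIHHL replicate 2. With the choroid plexus score as a covariate the log2 fold change of Wnt5a was 0.23 (SE 0.12), beside 0.10 (SE 0.14) without it.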

How the data were processed

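Poly(A) RNA of 3 Control and 4 NIHHL hippocampal libraries was sequenced on an Illumina NovaSeq instrument, per the labels' protocols. The authors deposited expected counts per gene, not scaled to library size, of which 90.7% were whole numbers. HISAT2, Bowtie2 2.2.8, DESeq2 and StringTie 1.3.1 are listed, without roles, in the submitters' processing notes. The build, annotation and strand setting were not given in the sources used here. Counts were rounded, filtered with edgeR's filterByExpr at a minimum count of 10 (14417 genes) and scaled by TMM. NIHHL was compared with Control by edgeR 4.0.16's quasi-likelihood test with robust moderation in R 4.3.3, with Benjamini-Hochberg adjustment over all genes. The fit was tested on simulated data. The SE is the ratio of the log2 fold change to the root of the F statistic, and log2 CPM carries a prior count of 2. DESeq2 1.42.0 and limma 3.58.1 were alternatives. The ligands and gene lists were chosen with earlier results of these data known. Named pathway genes were the 2 with the smallest unadjusted p in each list, since none was called. Exon lengths and neighbours come from GENCODE vM21 by gene identifier.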

Additional observations from a re-analysis of the deposited data

Results flagged for a closer look

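In the 4 NIHHL libraries, 42 sets of values were checked for a library far from the others: 10 ligands, 18 other named genes and 14 marker lists. Chance picks about 1 in 20 such sets. None of the ligands was picked. Vangl1 was at 7.20 CPM in NIHHL replicate 4 and between 5.46 and 5.67 in the other NIHHL libraries, a gap of 0.878 of the range. Celsr1 was at 15.3 CPM in NIHHL replicate 2 and between 13.9 and 14.1 in the others (0.847 of the range). The endothelial and mural score, a mean log2 CPM, was 4.16 in NIHHL replicate 3 and 4.03 to 4.05 in the others (0.889 of the range). The interneuron score was 5.87 in NIHHL replicate 4 and 6.04 to 6.07 in the others (0.863 of the range).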

How the results depend on the processing

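No ligand and no other pathway gene was called under any of 16 alternatives, and 10 of 10 ligands passed the low-count filter at each minimum count and without each library. Over all genes, edgeR called 0, but 1 with Control replicate 2 and NIHHL replicate 4 both left out, and DESeq2 called 4; the cause was not tested. With all libraries 523 genes had an unadjusted p under 0.05, 808 without Control replicate 1 and 1041 without Control replicate 2 and NIHHL replicate 4. Wnt2 kept its direction under all 16, from 0.33 with the oligodendrocyte score as a covariate to 0.90 without Control replicate 3. So did Wnt4 (0.09 to 0.27) and Wnt10a (-0.67 with the oligodendrocyte score as a covariate to -0.09 without Control replicate 3). The alternatives reuse the same libraries, and the ligands were chosen with this contrast in view. Nothing is therefore read from a kept direction. The log2 fold changes of the other 7 ligands changed sign under at least 1 alternative, among them Wnt2b (-0.03 with Control replicate 2 and NIHHL replicate 4 left out) and Wnt5a (-0.03 without Control replicate 2). The median of the 10 ligands, 0.03, was -0.01 without Control replicate 3 and -0.02 with Control replicate 2 and NIHHL replicate 4 left out. The median of the 2 tested other ligands, 0.75, ran from 0.21 to 0.97 over the fits that leave out 1 library, some of which test only 1 of them. Leaving out Control replicate 2 and NIHHL replicate 4 together and using the oligodendrocyte score were chosen after seeing the data.

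With the replicate number as a block, edgeR called 0 genes, 339 had an unadjusted p under 0.05, and the log2 fold change of Wnt2 was 0.62. The numbers are not shown to pair the libraries: deviations from the group means correlated at -0.54, -0.45 and -0.01 for replicates 1 to 3, and no Control library correlated best with its own number. Depth limits Wnt5b, Wnt10a, Wnt3 and Wnt2b most, and the 7 other Wnt genes under the filter were left out of the main test; the edgeR fit without a filter held them and called 0 genes.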
